A study of Danio rerio with 16 samples.

Results

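Zebrafish embryos exposed to retinoic acid (RA) at 0.33 µM were compared with embryos exposed to an antagonist of its receptors at 1 µM, the lower of 2 antagonist doses in the study. The comparison takes in 8 of the 16 arrays, the 4 titled for RA at 0.33 µM and the 4 titled for the antagonist at 1 µM, and it covers every probe set that passed a filter on low signal. All groups were whole, dechorionated wild-type embryos from an incross of AB/WIK hybrid parents, collected at 11 hours post fertilization (hpf), when the body axis is laid out and the first somites form. RA was given from 6.5 hpf for 4.5 hours, and the antagonist from 5.25 hpf for 5.75 hours. Compound, dose and exposure time therefore differ together between the groups and cannot be told apart. The other 8 arrays hold solvent controls in 2% dimethyl sulfoxide (DMSO), given for the same hours as the antagonist, and embryos given the antagonist at 10 µM. Both compounds were diluted 1:50 from DMSO stocks. The array titles spell the antagonist AGN193019 and the series design spells it AGN193109; the second is the name of a known RA receptor antagonist. Each group held 4 samples described as independent (n = 4 throughout).

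RA is made from vitamin A by retinol and retinaldehyde dehydrogenases, binds nuclear receptors of the RAR family that pair with RXR receptors, and is broken down by the Cyp26 enzymes. Bound receptors raise transcription of their target genes, among them cyp26a1, dhrs3 and the 3′ hox genes. In the vertebrate gastrula RA specifies the posterior hindbrain and anterior spinal cord, and an excess of it represses forebrain and midbrain fates. AGN193109 occupies the receptors without activating them.

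Of 11843 probe sets tested, 899 (7.59%) differed between RA and the antagonist at an adjusted p under 0.05, the threshold for a call here. Of these, 434 (3.66%) were higher and 465 (3.93%) lower in RA. The difference reached 2-fold for 223 of the higher and 233 of the lower, and 4-fold for 78 and 76. Taking 1 probe set per gene, 575 of 7118 genes (8.08%) were called, 272 (3.82%) higher in RA and 303 (4.26%) lower. Counts of called list members below are to be set beside these shares. The lists and their members were chosen with earlier results of these data known, so that choice can itself raise their counts above these shares. Some genes belong to more than 1 list, so the list counts are not separate results. Unless other groups are named, rises and falls below are of RA against the antagonist at 1 µM. Such a difference does not by itself show a change from DMSO. The median difference over all tested probe sets was 0.02 on the log2 scale, and the median of its size was 0.13. The 4 RA and the 4 antagonist values did not overlap for 1133 probe sets (9.57%), of which 834 were called. A plain p under 0.05 was reached by 1729 of the 11843 probe sets.

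**Figure D1:**
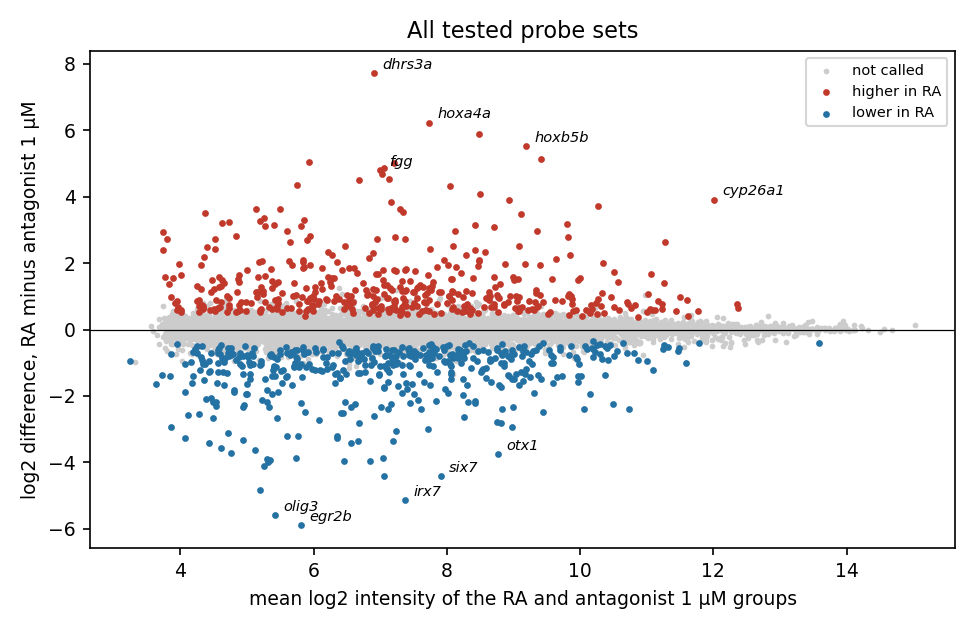
Each point is 1 of the 11843 tested probe sets, placed by its mean log2 intensity over the RA and antagonist groups (x axis) and by the log2 difference, RA minus antagonist at 1 µM (y axis). Red marks the 434 probe sets called higher in RA and blue the 465 called lower. The largest rise, dhrs3a at 7.71, stands above a broad field of calls within 4 log2 units of 0.

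The 8 arrays were alike in brightness, within a range of medians of 72.8 to 78.3 for all 16. The deposited values had already been normalized, which brings such medians together, so they do not measure array quality. Over the probe sets, the mean correlation of an array with the rest of its own group was 0.978 to 0.983 in RA and 0.975 to 0.978 with the antagonist, and with the opposite group it was 0.953 to 0.960. Antagonist replicates 1 and 4 were farther from the DMSO arrays (0.973 and 0.970) than replicates 2 and 3 (0.986 and 0.988). Without replicates 1 and 4, 741 probe sets were called, of which 654 were among the 899. All 22 markers of muscle, notochord, neural, epidermal, endodermal, blood, crest and yolk tissue that were set down to check the label of whole embryo passed the filter. So did 11843 of the 15502 probe sets that are not controls. Passing takes signal on 4 of the 16 arrays, of any group, so it does not show signal in RA. Of the 22 markers, 11 were called lower in RA and 0 higher, with a median of -0.49, beside 4.26% lower of all genes tested. Among these, egr2b and tal1 lay at or below log2 4 on every RA array. RNA came from whole embryos, so fewer cells of a type and less RNA per cell cannot be told apart in any result here.

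The enzymes of RA turnover gave the largest difference measured. dhrs3a, whose enzyme reduces retinaldehyde back to retinol, read 10.71, 10.93, 10.46 and 10.92 in RA and 3.30, 3.10, 3.31 and 2.46 with the antagonist (all values are log2 intensities). Every antagonist array lay below log2 4, the level used as the lower limit of signal. RA was at least 108-fold higher against that limit, with a fitted difference of 7.71 ± 0.17 (SE) and an adjusted p of 1.58e-14. DMSO embryos averaged 6.85, so dhrs3a was 3.91 above DMSO in RA and at least 7.20-fold below DMSO with the antagonist. cyp26a1, the main RA-degrading enzyme of the gastrula, read 14.04, 13.89, 13.71 and 14.25 in RA against 10.59, 9.94, 10.59 and 9.13. The 4 RA values sit close together and the antagonist values spread over more than 1 log2 unit, with no overlap. cyp26a1 was 3.91 ± 0.27 higher in RA (15.0-fold, adjusted p 1.33e-08). Against DMSO it was higher by 3.47 in RA, while the antagonist differed by -0.44 (adjusted p 0.749).

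The other Cyp26 enzymes did not follow cyp26a1. cyp26c1, expressed in the anterior hindbrain, read 3.22, 2.56, 2.69 and 2.83 in RA and 5.47, 5.27, 4.56 and 6.25 with the antagonist. Every RA array was below log2 4 and every antagonist array above it, a fall of at least 2.61-fold (adjusted p 3.15e-05). cyp26b1 read 8.73, 9.50, 9.00 and 9.88 in RA and 9.27, 9.37, 8.80 and 9.10 with the antagonist, and the groups overlapped. Its difference was 0.14 ± 0.23 (95% confidence interval -0.34 to 0.62, adjusted p 0.940). The sign turned to -0.06 without RA replicate 4 and to -0.01 with array weights. In the same fit cyp26b1 was 0.92 higher in RA than in DMSO (adjusted p 0.0199) and 0.77 higher with the antagonist than in DMSO (adjusted p 0.589). Its other 3 probe sets gave 0.16 to 0.19 between RA and the antagonist, none called.

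Among genes for RA synthesis and retinol uptake, aldh1a2 and stra6 were lower in RA and dhrs9 was higher. aldh1a2, the retinaldehyde dehydrogenase that makes RA in the paraxial mesoderm, read 8.22, 7.34, 8.27 and 7.94 in RA and 10.33, 9.02, 10.01 and 9.37 with the antagonist. The groups did not overlap, and the fall was 1.74 ± 0.29 on the log2 scale (adjusted p 0.000434). stra6, the receptor through which cells take up retinol, read 3.02, 3.71, 2.97 and 3.50 against 7.11, 7.06, 6.81 and 6.79. It was below the limit of signal on every RA array and at least 7.68-fold lower in RA (adjusted p 9.46e-11). dhrs9, which encodes a retinol dehydrogenase, averaged 7.34 in RA and 6.51 with the antagonist. It rose by 0.83 ± 0.20 (adjusted p 0.0141), although the arrays of the groups overlapped. rdh10b, whose enzyme makes retinaldehyde from retinol, gave -0.13 and was not called (adjusted p 0.897). nrip1b, a corepressor that binds ligand-bound nuclear receptors, averaged 10.00 in RA and 6.86 with the antagonist, a rise of 3.14 ± 0.21. crabp2a, an RA-binding protein of the cytoplasm, rose by 1.09 (adjusted p 0.000339). Of 23 genes listed for RA metabolism and feedback, 12 passed the filter, of which 5 were higher, 3 lower and 4 not called, with a median of 0.09.

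Among the receptors, rxrga changed most. It read 9.64, 9.23, 9.52 and 9.60 in RA and 4.72, 4.58, 4.22 and 4.97 with the antagonist, with DMSO between them at 5.99. The difference was 4.87 ± 0.15 (29.3-fold, adjusted p 5.58e-13). raraa averaged 9.07 in RA and 7.37 with the antagonist and rose by 1.70 ± 0.13. rarga went the other way, from 8.30 with the antagonist to 5.92 in RA, a fall of 2.38 ± 0.20 on the log2 scale (adjusted p 1.50e-07). Its other probe set gave -2.60. The remaining 3 tested receptors, rarab, rxrba and rxrbb, gave 0.43, -0.13 and -0.21 and were not called.

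**Figure D2:**
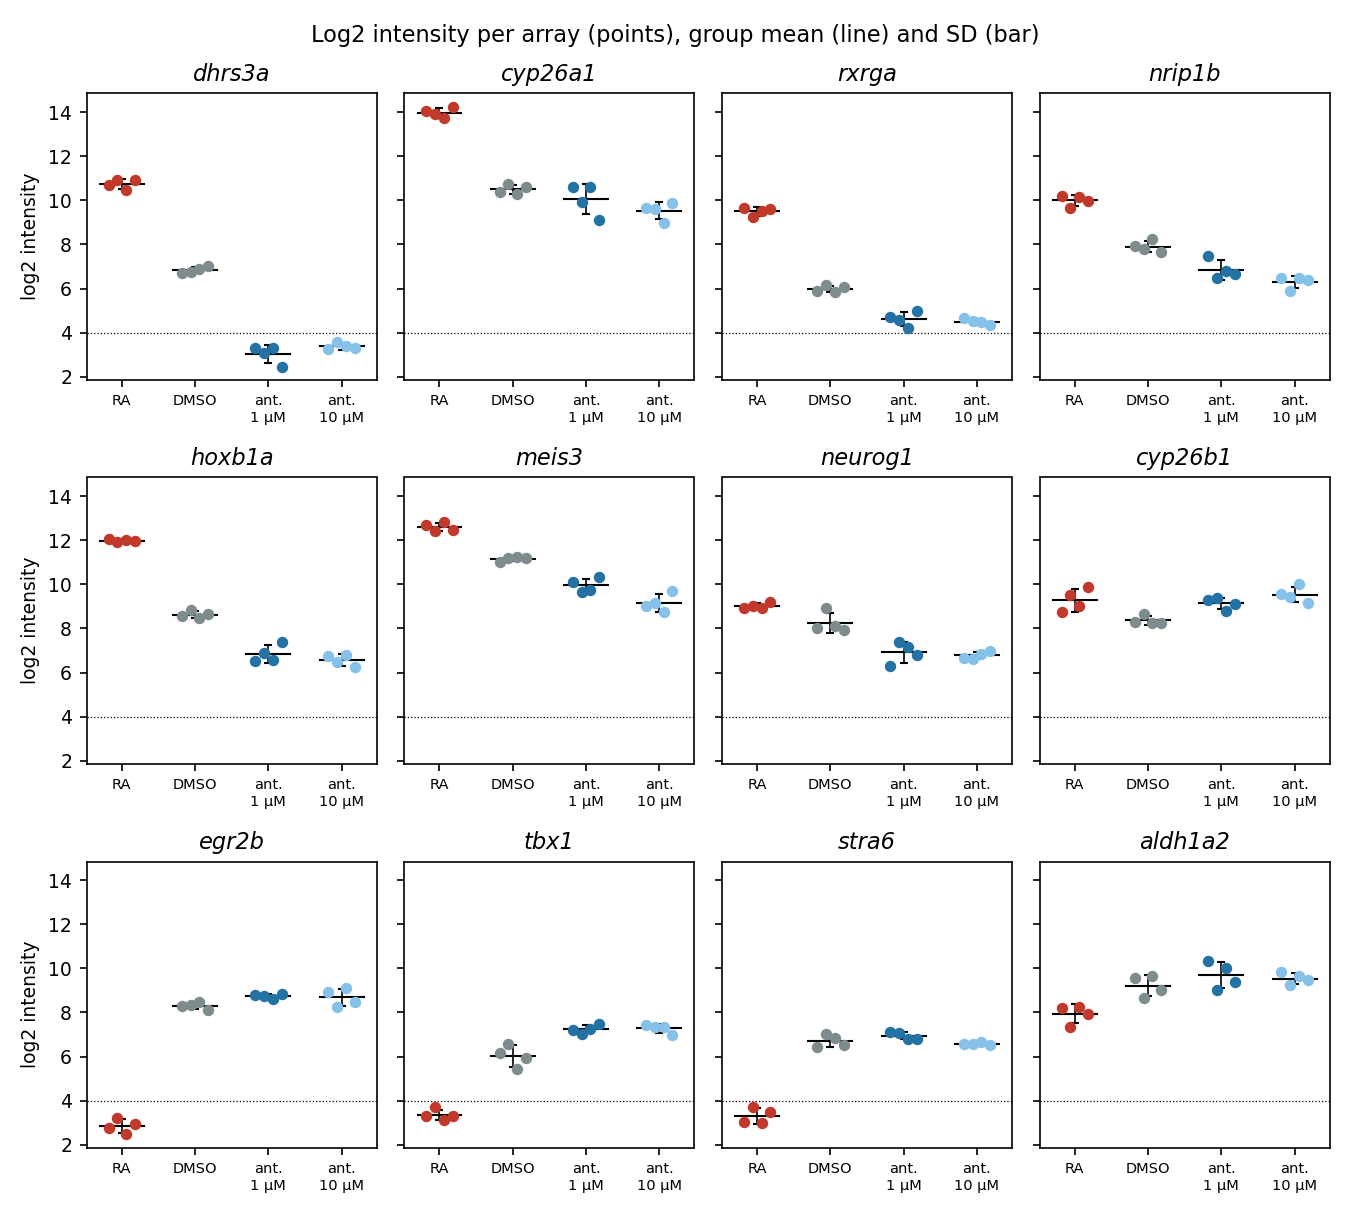
Each point is the log2 intensity of 1 array for 12 genes of RA turnover, receptors and patterning, in RA (red), DMSO (grey), the antagonist at 1 µM (dark blue) and at 10 µM (light blue); lines are group means, bars are SD and the dotted line is log2 4. dhrs3a falls in steps from RA (mean 10.76) through DMSO (6.85) to the antagonist at 1 µM (3.04), whereas egr2b, tbx1 and stra6 are below the dotted line in RA and cyp26b1 is at 9.28 in RA and 9.14 with the antagonist.

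Most 3′ hox genes were many-fold higher in RA. Of 18 genes listed in paralogue groups 1 to 5, 16 passed the filter, and 12 were higher, 1 lower and 3 not called, with a median of 3.92. hoxa4a, the largest of these, read 10.71, 11.03, 10.78 and 10.90 in RA and 4.41, 4.43, 4.83 and 4.82 with the antagonist. The groups lay 6.23 ± 0.16 apart (75.2-fold, adjusted p 5.25e-14), with DMSO at 6.12. hoxb1a, which marks rhombomere 4 of the hindbrain, read 12.05, 11.90, 11.99 and 11.98 in RA and 6.52, 6.87, 6.55 and 7.40 with the antagonist, 5.14 ± 0.18 apart. Its RA arrays lay close together, and its DMSO mean of 8.63 was between the groups. hoxb5a (5.88 ± 0.21) and hoxb5b (5.53 ± 0.21) were next, and DMSO was close to the antagonist for hoxb5a (5.97 and 5.55); for hoxa5a both means (3.65 and 3.57) were below log2 4. hoxa5a was at least 15.2-fold and hoxc1a at least 4.34-fold higher in RA, since every antagonist array lay below log2 4. Both passed the filter through their RA arrays alone, so they could enter the 16 only by being high in RA. hoxc4a also had means below log2 4 in DMSO (3.18) and at both antagonist doses (3.10 at 1 µM), so its place in the 16 likewise rested on being high in RA. Its fitted rise of 3.25 starts below the limit of signal, which limits that size. The count of 12 higher genes and the median include hoxa5a, hoxc1a and hoxc4a. The exception was hoxa2b, the hox gene expressed farthest forward in the hindbrain, which fell by 1.83 on the log2 scale (adjusted p 3.42e-07). Its RA mean of 3.90 lay below log2 4, which limits that size. hoxc3a, hoxd3a and hoxc5a gave 0.34, 0.05 and -0.23 and were not called. Array probes can cross-bind near-identical hox paralogues, which these values cannot resolve.

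The median difference was lower in the later blocks of paralogue groups. It did not run down group by group, since the largest rises (hoxa4a, hoxb5a and hoxb5b) were in groups 4 and 5. In groups 6 to 8, 4 of 8 tested genes were higher and none lower, with a median of 0.92. These were hoxb6b (3.63 ± 0.19), hoxb6a (3.11), hoxb8b (2.14) and hoxb8a (1.81), all of hoxb clusters. In groups 9 to 11, none of 11 tested genes was higher and 7 were lower, with a median of -1.38. The stricter filter on signal, which tests fewer of them, left 4 lower in groups 6 to 13. hoxa9b, a gene of the posterior trunk, read 2.74, 3.69, 3.23 and 3.61 in RA and 7.16, 7.41, 7.25 and 7.40 with the antagonist. All of its RA arrays were below the limit of signal, which gives a fall of at least 9.87-fold (adjusted p 7.61e-10). hoxd9a fell by 3.26 ± 0.18 and hoxd11a by at least 2.50-fold. The DMSO means of hoxa9b (7.05) and hoxd9a (7.74, beside 7.98) lay near the antagonist means. cdx4, a caudal homeobox regulator of posterior hox genes, was at 12.53 in RA and 12.62 with the antagonist and was not called (adjusted p 0.928). Its difference of -0.09 turned to 0.02 without antagonist replicates 1 and 4.

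**Figure D3:**
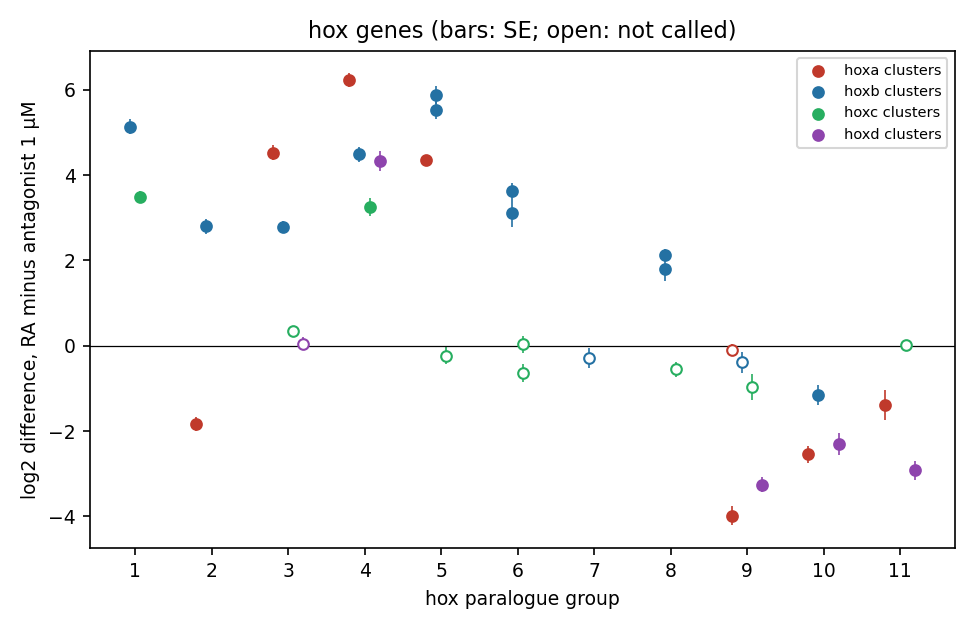
The log2 difference, RA minus antagonist at 1 µM (y axis, bars are SE), of the 35 tested hox genes by paralogue group (x axis) and cluster letter (colour); filled points were called and open points were not. In groups 1 to 5, 12 of 16 points are called above 0, and in groups 9 to 11, 7 of 11 are called below 0.

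Transcripts of 5 meis genes, which encode homeodomain cofactors that bind DNA with Hox and Pbx proteins, rose, and no pbx gene was called. Of 11 tested genes of the meis and pbx list, 5 were higher and 1 lower. meis3 read 12.69, 12.41, 12.81 and 12.47 in RA and 10.10, 9.65, 9.75 and 10.31 with the antagonist. The groups stood 2.64 ± 0.18 apart (adjusted p 1.43e-08), with DMSO between them at 11.16. meis2a (3.53), meis2b (2.23), meis1a (1.58) and meis1b (1.44) also rose. pbx1a, pbx2, pbx3b and pbx4 lay between -0.04 and 0.18 and were not called. Of these, pbx1a (means 4.03 in RA and 3.99 with the antagonist) and pbx3b (4.12 and 4.16) were close to log2 4. Their small differences therefore do not show that these 2 transcripts were stable. pknox2 fell by 2.17 (adjusted p 2.55e-06), to an RA mean of 3.41, below the limit of signal.

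The list of hindbrain patterning genes was split in direction. Of 22 tested genes of hindbrain patterning, 8 were higher (5 in the fit of the 8 arrays alone) and 8 lower, with a median of -0.05. egr2b, the zinc finger factor of alternate rhombomeres, was among the genes that fell. It read 2.75, 3.23, 2.51 and 2.95 in RA and 8.79, 8.75, 8.61 and 8.84 with the antagonist. All RA arrays were below the limit of signal and the antagonist arrays agreed closely with each other, so the fall was at least 26.9-fold (-5.89 ± 0.18, adjusted p 5.58e-13). irx7, an Iroquois homeobox gene of the anterior hindbrain, fell by 5.14 ± 0.30, with RA arrays between 3.70 and 5.70 and antagonist arrays between 9.57 and 10.26. For irx7, RA replicate 1 (3.70) lay below log2 4, which limits that size. gbx2 at the midbrain-hindbrain boundary fell by 3.87 ± 0.24 and irx1a by 3.21 ± 0.14. Of the other Iroquois genes tested in this list, irx3a fell by 0.88, whereas irx1b rose by 0.98 ± 0.17 (adjusted p 0.000616). fgf3, the Fgf ligand of the central hindbrain, was at least 2.68-fold lower.

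Members of the orphan nuclear receptors of this list moved in both directions. nr2f1a, a COUP-TF orphan receptor, read 10.83, 10.30, 10.35 and 10.64 in RA and 6.80, 6.34, 5.67 and 7.05 with the antagonist. It was 4.07 ± 0.24 higher in RA (16.8-fold, adjusted p 1.67e-09). znf503, a zinc finger repressor expressed in the hindbrain, averaged 11.39 in RA, 9.01 in DMSO and 8.22 with the antagonist. nr2f6b, another orphan receptor, rose by 2.00, whereas nr2f2, a second COUP-TF receptor, fell by 0.86 ± 0.21 on the log2 scale (adjusted p 0.0118). hnf1bb, a homeodomain factor of the caudal hindbrain and kidney, read 6.22, 7.18, 5.35 and 6.87 against 5.10, 5.14, 4.22 and 5.53. Its groups overlapped, and its rise of 1.41 (adjusted p 0.0115) was not called in the fit of the 8 arrays alone (0.0720) or with array weights (0.187). fgf8a and gbx1 gave 0.37 and -0.01 and were not called.

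Forebrain, eye and midbrain genes were lower in RA almost throughout. Of 43 listed, 28 passed the filter, and 25 were lower, none higher and 3 not called, with a median of -2.27. mab21l2, required for eye growth, read 2.22, 3.07, 2.71 and 3.13 in RA and 7.46, 7.76, 7.12 and 8.12 with the antagonist, a fall of at least 12.2-fold (adjusted p 6.40e-11). The RA arrays were all below the limit of signal, and DMSO was at 7.54, next to the antagonist. six7 of the eye field, in contrast, ranged from 4.19 to 7.33 across the RA arrays and from 9.85 to 10.27 across the antagonist arrays. It fell by 4.41 ± 0.42 on the log2 scale, and its second probe set, which was dimmer, fell by 1.61. six7 was named for a large fall without overlap, so its lack of overlap was set by that rule. dmbx1a, a homeobox gene of the midbrain, fell by 4.40 ± 0.19, her5 of the midbrain-hindbrain boundary by 3.97 ± 0.28, and en2a, its Engrailed factor, by at least 9.90-fold. For her5, RA replicate 1 (3.45) lay below log2 4, which limits that size.

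The Otx genes, which define forebrain and midbrain, all fell: otx1 by 3.75 ± 0.25, otx2b by 2.80 ± 0.33 and otx2a by at least 3.23-fold. otx2b read 6.31, 8.52, 7.13 and 7.69 in RA and 10.34, 10.36, 9.88 and 10.25 with the antagonist. RA replicate 1 was the lowest and RA replicate 2 the highest of its group for otx2b, as they were for six7 and six3b, and all stayed below the antagonist arrays. six3b fell by 3.05 ± 0.29. The 3 members that were not called were emx2 (0.23), sfrp1a (0.13) and sfrp5 (0.08).

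Neurogenesis genes moved in both directions. Of 32 tested, 6 were higher and 14 lower, with a median of -0.49. RA against DMSO gave 3 higher and 12 lower in this list. neurog1, the proneural factor of primary neurons, read 8.92, 9.02, 8.91 and 9.19 in RA and 6.32, 7.39, 7.15 and 6.79 with the antagonist. It was 2.10 ± 0.22 higher in RA (adjusted p 3.23e-06) without overlap. Its DMSO mean of 8.25 lay closer to RA, with a difference of 0.76 from RA (adjusted p 0.0610) and of -1.34 between the antagonist and DMSO (adjusted p 0.0167; not called without antagonist replicate 4). insm1b (1.53), olig2 (1.44) and neurod4 (1.13) also rose. olig3, a bHLH factor of dorsal neural progenitors, read 2.40, 2.32, 3.30 and 2.52 in RA and 8.84, 8.05, 8.03 and 7.91 with the antagonist. RA lay below the limit of signal on all arrays, at least 18.5-fold under the antagonist, and DMSO was at 7.15. Its second probe set fell by 1.60, from an antagonist mean of 4.98. sox1a fell by 3.88 ± 0.18 (1.95 by its second probe set), dbx1a by 3.35 ± 0.31, isl2a by 2.49 ± 0.21 and nkx2.2b by at least 4.82-fold. At or below log2 4 lay 3 of 4 RA arrays for sox1a and 1 each for dbx1a and isl2a, which limits these sizes. sox2 fell by 1.38 ± 0.12, while sox3 (0.03) and elavl3 (0.33) were not called.

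At the border of the neural plate, falls outnumbered rises. Of 18 tested neural crest genes 3 were higher and 7 lower, and of 13 placode genes 2 were higher (1 in the fit of the 8 arrays alone) and 6 lower. The shares over all genes were 3.82% higher and 4.26% lower. foxi1, which induces the ear placode, read 3.31, 3.80, 4.30 and 4.61 in RA and 7.25, 7.26, 7.50 and 6.75 with the antagonist, a fall of 3.19 ± 0.22. For foxi1, 2 of 4 RA arrays lay at or below log2 4, which limits that size. six4b fell by 2.33 ± 0.14, dlx4b by at least 3.09-fold and dlx3b by 1.23 ± 0.17. zic2a, a neural plate and crest factor, fell by 2.39 ± 0.20 (its second probe set gave -1.39) and foxd3, an early crest marker, by 0.66 ± 0.10, whereas crestin, a marker of crest cells, rose by 1.33 ± 0.15. One of 3 probe sets of msx3 gave -0.22 and was not called; the one that represents the gene gave -1.67. Outside these lists, oc90, which encodes an otolith matrix protein, was 3.90 ± 0.36 higher in RA, with RA arrays from 10.48 to 11.07 and antagonist arrays from 5.75 to 7.42.

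Several genes of the unsegmented paraxial mesoderm were lower in RA. Of 17 tested genes of segmentation and the presomitic mesoderm, none was higher and 7 were lower, with a median of -0.90. msgn1, a bHLH factor of the presomitic mesoderm, read 9.17, 9.79, 9.47 and 9.75 in RA and 11.90, 12.14, 11.78 and 11.94 with the antagonist. It fell by 2.39 ± 0.15 (adjusted p 3.36e-09), and the DMSO mean of 11.83 sat with the antagonist. The T-box genes tbx16 and tbx16l fell by 1.50 ± 0.13 and 1.40 ± 0.14, and lfng, a modifier of Notch, by 0.94 ± 0.12. tbx6 (0.10) and dld (0.18) were not called. Of 9 tested muscle genes only myf5, an early myogenic factor, was called, with a fall of 0.95 ± 0.20 (adjusted p 0.00458). That is 1 of 9, beside 8.08% of all genes tested. myod1 read 5.77, 5.81, 5.77 and 5.98 in RA and 5.92, 5.97, 6.01 and 5.88 with the antagonist, an overlapping pair of groups 0.11 apart (adjusted p 0.794).

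Among axial mesoderm genes, gsc of the prechordal plate and otx2b had the largest falls. Of 20 tested genes of this list, none was higher and 12 were lower, with a median of -0.49. otx2b is the gene given above with forebrain and midbrain, and RNA of whole embryos does not show in which tissue it fell. gsc, which encodes the Goosecoid homeobox factor, read 4.32, 6.29, 5.10 and 5.38 in RA and 8.09, 8.23, 8.41 and 7.59 with the antagonist. It fell by 2.81 ± 0.32 (adjusted p 8.06e-06), and DMSO stood at 8.34. The Wnt receptor genes fzd8b and fzd8a, of anterior axial and neural tissue, fell by 1.67 ± 0.19 and 1.20 ± 0.11, and chrd, the Bmp inhibitor Chordin, by 1.09 ± 0.13. tbxta, the Brachyury factor of notochord and tail bud, fell by 0.36 ± 0.10 (adjusted p 0.0366). That call was lost without RA replicate 1, 3 or 4 or antagonist replicate 1, 2 or 4 (adjusted p 0.0583 to 0.113) and in the fit of the 8 arrays alone (0.166). foxa2, a forkhead factor of floor plate and endoderm, fell by 0.50 ± 0.13 (adjusted p 0.0220), a call lost without RA replicate 3 or 4 or antagonist replicate 1 or 3 (0.0616 to 0.0811) and in the fit of the 8 arrays alone (0.118).

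Of 11 tested endoderm genes, 4 were lower and none higher. When RA was set against DMSO, 1 was called lower and 0 higher. cxcr4a, a chemokine receptor of migrating endoderm, fell by 1.56 ± 0.22, and cxcl12b, a ligand of such receptors, by 0.91 ± 0.17. The call of cxcl12b was lost without antagonist replicates 1 and 4 (adjusted p 0.0572). For cxcl12b, RA against DMSO gave -0.41 and was not called (adjusted p 0.286). The other members called lower were foxa2 and hhex, a homeobox gene of liver and blood vessel progenitors. hhex fell by 1.20 ± 0.35 (adjusted p 0.0443), its arrays overlapped, and the call was lost without any 1 of 6 arrays (RA replicates 1, 3 and 4, antagonist replicates 1, 2 and 3; adjusted p 0.0554 to 0.146) and in the fit of the 8 arrays alone (0.0584). The count of lower endoderm genes was 2 without RA replicate 3 or 4 or antagonist replicate 1 or 3, and 2 in the fit of the 8 arrays alone. sox17 (-0.22) and sox32 (-0.79), which specify endoderm, were not called, and neither was gata5 (0.09).

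Heart, blood and kidney progenitor genes diverged from one another. Over all genes tested, 3.82% were higher and 4.26% lower. tbx1, a T-box factor of pharyngeal and cardiac mesoderm, read 3.30, 3.70, 3.12 and 3.29 in RA and 7.22, 7.02, 7.24 and 7.50 with the antagonist. RA was at least 9.49-fold lower (adjusted p 3.88e-10), and the DMSO mean of 6.03 lay between the groups. Of 11 tested heart field genes 4 were lower, among them isl1a (-2.51 ± 0.24, and -1.14 by its second probe set), nkx2.7 (-2.22 ± 0.23) and hey2 (-1.81 ± 0.19), and 1 was higher: hand2, a bHLH factor of the heart field, which rose by 1.02 ± 0.16. gata4, gata5 and gata6 gave -0.17, 0.09 and 0.52 and were not called. Of 8 tested blood and vessel genes, 4 were lower and 1 higher. tal1, which specifies blood and endothelium, was at least 6.06-fold lower in RA, drl fell by 2.32 ± 0.16, and cebpa, a myeloid factor, rose by 0.93 ± 0.16. lmo2 fell by 0.77 ± 0.18 (adjusted p 0.0112). For lmo2, RA against DMSO gave -0.40 (adjusted p 0.348) and the antagonist against DMSO 0.37 (adjusted p 0.745), neither called. In the blood and vessel list, RA against DMSO gave 2 lower and 1 higher. Of 7 tested kidney genes, 3 were higher and 1 lower: lhx1b was at least 3.31-fold higher, pax8 and hnf1bb rose by 0.85 and 1.41, and pax2a, which also marks the midbrain-hindbrain boundary, fell by 1.73 ± 0.19. pax8 and hnf1bb were not called in the fit of the 8 arrays alone (adjusted p 0.0546 and 0.0720), which left 1 higher kidney gene, lhx1b. It passed the filter through its RA arrays alone, so it could enter the count only by being high in RA. In the kidney list, RA against DMSO gave 1 higher and 1 lower.

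**Figure D4:**
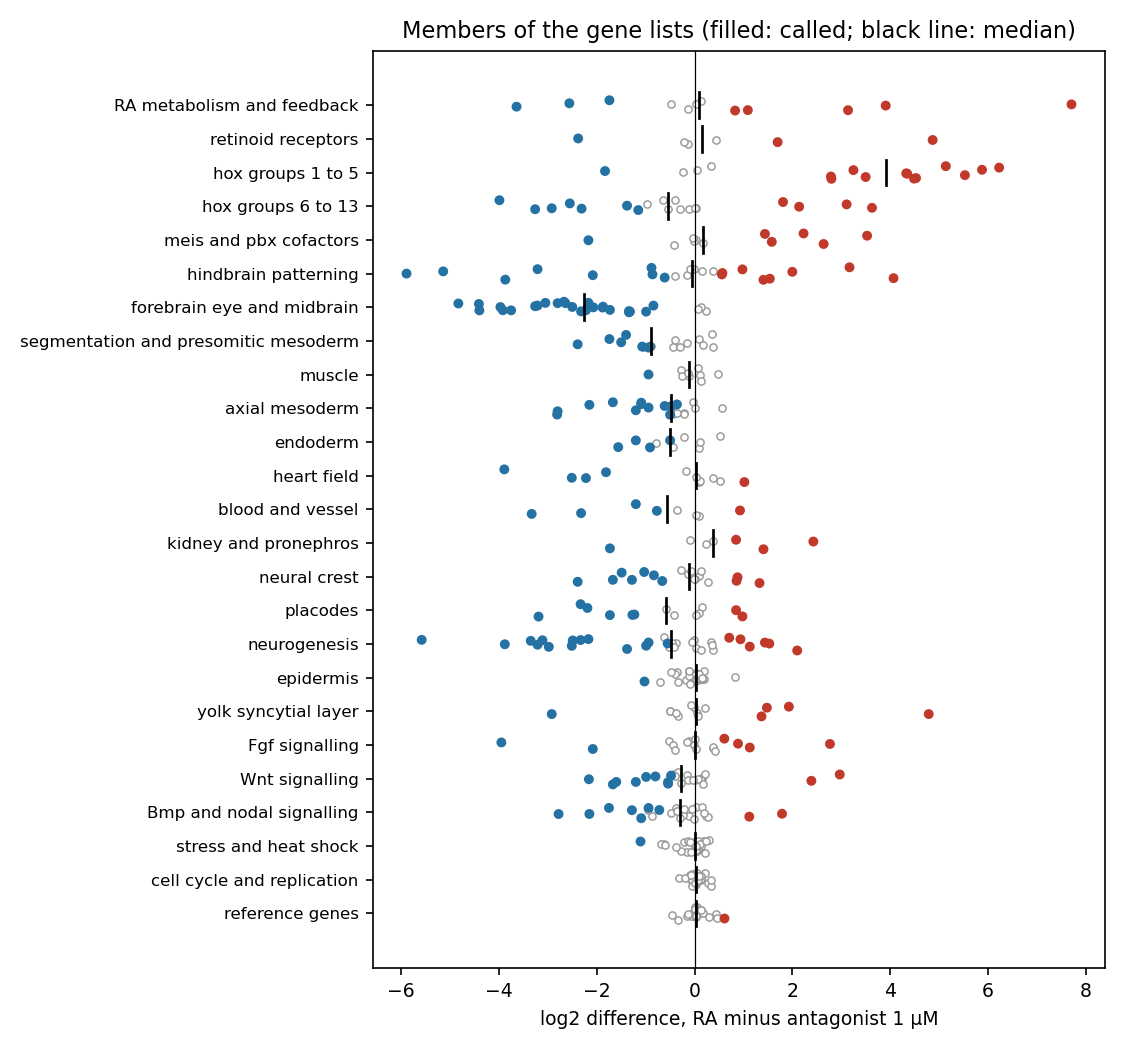
Each point is 1 tested gene of a list (rows), at its log2 difference, RA minus antagonist at 1 µM (x axis); red and blue points were called higher and lower, open points were not called, and black lines are list medians. Points of hox groups 1 to 5 lie mostly to the right (median 3.92) and those of forebrain, eye and midbrain to the left (median -2.27), while cell cycle genes cluster at 0.02.

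Some members of the Fgf, Wnt and Bmp/Nodal signalling pathways, which have roles in axial patterning, were called. Among all genes tested, 3.82% were higher and 4.26% lower. In the Fgf list 4 of 17 tested genes were higher and 2 lower. fgfr3, a receptor, read 8.96, 8.17, 8.74 and 8.52 in RA and 6.12, 5.78, 5.64 and 5.78 with the antagonist, a rise of 2.77 ± 0.16. dusp6, a phosphatase induced by Fgf signals, rose by 0.89 ± 0.15, and dusp2, of the same family, fell by 3.95 ± 0.20. spry4, etv4 and etv5a, other Fgf targets, lay between -0.12 and 0.03 and were not called. In the Wnt list 2 of 25 tested genes were higher and 9 lower. wnt11, a ligand of the non-canonical pathway, was 2.97 ± 0.17 higher in RA, with means of 9.61 in RA, 7.72 in DMSO and 6.64 with the antagonist. wnt4 was at least 1.92-fold higher, and it passed the filter through its RA arrays alone. sp5a and axin2, both targets of canonical Wnt signals, fell by 2.16 ± 0.24 and 0.80, and fzd10, a receptor, by 1.60 ± 0.14. In the Bmp and Nodal list 2 of 26 were higher and 7 lower. szl, the Sizzled inhibitor of Chordin proteases, fell by 2.78 ± 0.37, lft1, a Nodal inhibitor, by 2.15 ± 0.28 and bmpr1ba, a Bmp receptor, by 1.28 ± 0.11, while id2b, a target of Bmp signals, rose by 1.79 ± 0.17. bmp4, smad5 and id3 lay between -0.06 and 0.03 and were not called.

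In the list of genes of the yolk syncytial layer, the tissue that exports yolk nutrients, the fibrinogen genes rose. fgg read 9.34, 9.62, 8.87 and 9.76 in RA and 4.30, 5.13, 4.39 and 4.60 with the antagonist, 4.79 ± 0.21 apart (27.7-fold, adjusted p 4.00e-11), and DMSO was level with the antagonist at 4.56. fgb rose by 1.37 ± 0.23, and fga was at least 2.42-fold higher, with RA replicate 4 at 6.99 and the other RA arrays between 4.44 and 5.10. fga passed the filter through its RA arrays alone. apoa4b.1, an apolipoprotein gene, fell by 2.92 ± 0.18, and apoba rose by 1.48 ± 0.32 (adjusted p 0.00601), although its second probe set (1.25) was not called. In all, 4 of 14 tested yolk genes were higher and 1 lower, beside 3.82% and 4.26% of all genes tested.

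The lists of epidermis, stress, cell cycle and reference genes held 0 or 1 call each, beside 8.08% of all genes tested. In the epidermis list, 1 of 26 tested genes was called: klf17, a Krüppel-like factor of the hatching gland, fell by 1.03 ± 0.12. The keratin genes krt4, krt5 and krt8 gave 0.02, 0.04 and 0.13. Of 28 stress and heat shock genes hspb8, a small heat shock protein, was called with a fall of 1.12 ± 0.31 (adjusted p 0.0317). It read 5.43, 4.94, 5.19 and 5.01 in RA, 6.95, 5.74, 5.91 and 6.46 with the antagonist, and averaged 5.22 in DMSO, so DMSO was level with RA. The call was lost without RA replicate 2, 3 or 4 or antagonist replicate 1 or 4 (adjusted p 0.0651 to 0.121), leaving 0 stress genes called. None of 26 cell cycle and replication genes was called by limma, and 1, cdk2 (0.34), had a plain p under 0.05. Of 22 reference genes gapdh alone was called, at 0.60 ± 0.15 (adjusted p 0.0176), and that call was lost without RA replicate 3 or 4 or antagonist replicate 1 or 4 (0.0562 to 0.0714) or in the fit of the 8 arrays alone (0.0654).

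Set side by side from the same fit, RA against DMSO gave 681 called probe sets (5.75%) and the antagonist at 1 µM against DMSO gave 17 (0.144%); these comparisons share arrays with each other and with the one above. The 17 stand for 13 named genes (0.183%) and 3 probe sets without a gene name. A plain p under 0.05 was reached by 744 of 11843 probe sets for the antagonist against DMSO. Lower with the antagonist than in DMSO were dhrs3a (by at least 7.20-fold) and, as log2 differences, hoxb1a (-1.79), hoxa4a (-1.49), rxrga (-1.37), neurog1 (-1.34), meis3 (-1.20), wnt11 (-1.08), tshz1 (-1.01), hoxa3a (-0.91) and znf503 (-0.79). These 10 are 0.140% of the genes tested. Higher (3 genes, 0.0421%) were the T-box genes tbx15 (1.35) and tbx1 (1.21) and the zinc finger gene zic6 (0.80). Of these 13 genes, between 9 and 10 stayed called when any 1 antagonist array was left out, and 8 without replicates 1 and 4 (tbx15, tbx1, zic6, neurog1 and wnt11 were lost). The calls lost with 1 array were tshz1 (without replicate 1, 2 or 3), znf503 (2, 3 or 4), hoxa3a (2 or 3), zic6 (1 or 2), tbx15 (1), and tbx1 and neurog1 (4). For tbx15 the RA arrays read 4.64, 3.80, 3.92 and 3.79, the DMSO arrays 4.65, 4.77, 4.29 and 4.75 and the antagonist arrays 6.19, 5.76, 5.84 and 6.08. RA and DMSO overlapped there, and RA against the antagonist gave -1.93 ± 0.22 (adjusted p 7.35e-06), against -0.58 for RA and DMSO (adjusted p 0.194). For zic6, RA against the antagonist gave -1.10 ± 0.13 and RA against DMSO -0.30 (adjusted p 0.340).

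**Figure D5:**
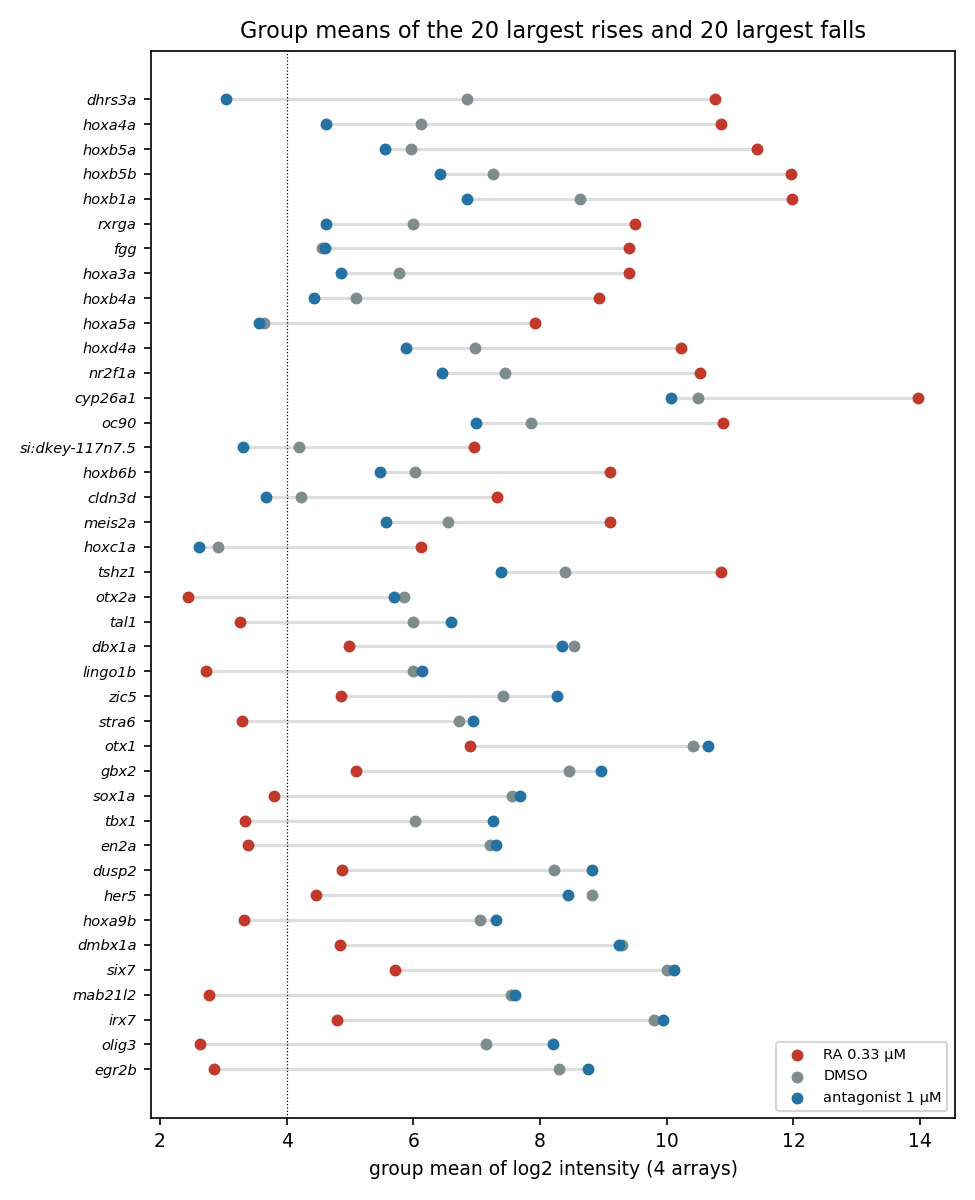
Group means of log2 intensity (x axis) in RA (red), DMSO (grey) and the antagonist at 1 µM (blue) for the 20 genes with the largest rise and the 20 with the largest fall, RA minus antagonist, among genes whose arrays did not overlap; the dotted line is log2 4. For dhrs3a, DMSO (6.85) lies between RA (10.76) and the antagonist (3.04), while for fgg (4.56 and 4.60) and mab21l2 (7.54 and 7.61) DMSO and the antagonist lie together.

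Values at 10 µM of the antagonist are given here beside those at 1 µM. dhrs3a averaged 3.38 at 10 µM and 3.04 at 1 µM, both below log2 4, hoxb1a 6.58 and 6.84, tbx1 7.27 and 7.25, and egr2b 8.69 and 8.75. meis3 was at 9.15 and 9.95 and hoxd4a at 4.88 and 5.89, neither called between doses. Between the doses limma called 1 probe set (0.00844%), which has no gene name here, and 0 named genes. Its plain p was under 0.05 for 1056 of 11843 probe sets and 721 of 7118 genes. For the antagonist at 1 µM against DMSO, that number was 744 probe sets. The near absence of calls therefore does not show that the doses gave the same values. RA against the antagonist at 10 µM gave 1048 called probe sets (8.85%), beside the 899 at 1 µM.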

How the data were processed

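Affymetrix zebrafish array values of whole embryos were used. The deposited intensities (linear, 1 value for each probe set on each array) were made with GCRMA (background correction, normalization, summary) per the submitters' processing notes; no version or later scaling is given in the sources used here. Log2 was taken, 115 control probe sets were dropped, and a probe set was tested above log2 4 on at least 4 of 16 arrays. A gene above log2 4 on its RA arrays alone was thus tested only because it was high in RA. limma 3.58.1 (R 4.3.3) fitted 4 group means to all 16 arrays (12 residual, 4.45 prior degrees of freedom; two-sided; Benjamini-Hochberg over 11843 probe sets). The script was tested on simulated data. Folds are differences of log2 means; a group with no array above log2 4 was set to log2 4, and the fold is then a lower bound.

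Symbols came from the platform annotation (10802 probe sets with 1 symbol, 135 with several, 4680 with none), updated by Entrez number with the RefSeq table of GRCz12tu (10718 matched, 1 changed). A gene is its tested probe set with the highest mean. Genes named were the 20 largest rises and 20 largest falls without overlap, up to 5 called members of each of 26 lists, or the member with the smallest p where none was called, the largest calls between doses (there were 0 genes) and 30 always named: 117 genes. Other genes (such as hoxa2b, pknox2, tbx15, zic6 and members named as not called) were chosen after their values were seen. Members and lists were chosen with earlier results of these data known. Nothing in the sources gives array batches. Same-numbered RA and antagonist arrays correlated in their deviations at 0.32, 0.76, 0.10 and -0.46. These mixed values do not settle whether the numbers pair the samples, and the main fit did not take them as pairs. Alternatives were the fit, normalization, filter, offset, array weights, variance trend, replicate block and arrays left out. The number of arrays limits the precision.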

Additional observations from a re-analysis of the deposited data

Results flagged for a closer look

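In groups of 4 arrays a single array can stand apart from the other 3. Of 234 such groups checked among the named genes, 13 held an array whose gap to its nearest neighbour passed Dixon's 95% critical value of 0.829 as a share of the range; chance flags about 1 in 20 groups. In the antagonist group, replicate 1 stood above the others for olig3 (8.84), zic5 (8.59) and tal1 (7.03) and below them for fgb (4.56). Replicate 2 was high for hoxa5a (3.77), under the limit of signal like the rest. Replicate 3 was low for oc90 (5.75, with the others between 7.39 and 7.42) and msx3 (8.28). Replicate 4 was low for otx2a (5.13) and irx1a (7.83) and high for crestin (6.71). In the RA group, replicate 1 was low for six4b (5.42) and isl2a (3.84), and replicate 3 for oc90 (10.48). Every one of these genes stayed called when the array in question was left out, with adjusted p of at most 0.00226. They had been named for large differences without overlap or small adjusted p in these same arrays, which favoured that outcome.

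Between the antagonist doses, 1 probe set without a gene name was lower at 10 µM than at 1 µM (-3.09 ± 0.22 on the log2 scale, adjusted p 1.88e-06). The 1 µM arrays read 6.56, 6.73, 6.06 and 7.13 and the 10 µM arrays 3.38, 3.93, 3.15 and 3.66, with no overlap. In RA it averaged 2.90, with every array below the limit of signal, and in DMSO 7.07. RA and the higher dose were thus both low against DMSO, while the lower dose was 0.45 below it (adjusted p 0.745). RA was at least 6.15-fold below the antagonist at 1 µM.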

How the results depend on the processing

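The count of 899 called probe sets stayed within 1.5 times under each alternative. It was 690 in the fit of the 8 arrays alone (680 shared with the 899), 706 with the stricter filter of log2 6, 884 with an offset of 16, 892 with a variance trend, 908 after quantile normalization, 909 with array weights, 933 after centring on array medians, 948 without a filter, and 771 to 878 when 1 array was left out. Without antagonist replicates 1 and 4, a setting chosen after seeing the data, it was 741. The share of calls higher in RA was 45.5% to 53.4%, beside 48.3%. With the replicate number as a block, 1001 were called (880 shared). Whether the numbers pair the samples is not settled by the values here. Of 113 named genes called, 108 stayed called without any single array. Most of them were named for large differences without overlap or for small adjusted p in these same arrays. That choice favoured their staying called. Of the 113, 99 could be tested under all 19 alternatives, and 91 of these stayed called throughout; the other 14 had no value under the stricter filter. The calls of lmo2 (adjusted p 0.0773), cxcl12b (0.0572), fgfr2 (0.0795), tbxta (0.194), gapdh (0.260) and hspb8 (0.366) were lost without antagonist replicates 1 and 4. Array weights ended those of fgfr2 (0.0548) and hspb8 (0.120), and the offset that of hspb8 (0.0596). hhex was not called after quantile normalization (0.0540), without a filter (0.0703) or with the offset (0.0721). Some list counts moved with 1 array: lower meis and pbx genes from 1 to 2 and lower yolk genes from 1 to 2 without antagonist replicate 3, and higher epidermis genes from 0 to 1 without RA replicate 1 or antagonist replicate 4. The sign changed for cyp26b1, with array weights (-0.01) and among arrays left out (-0.06 to 0.32), and for cdx4 without antagonist replicates 1 and 4 (0.02); neither gene was called. The causes were not tested. Signal at or below log2 4 limits the folds of genes that fall below it in a group.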

Other observations

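Among the 899 called probe sets, 234 had no single gene name, and some differed as much as the named genes. The largest rise among them read 8.72, 8.18, 8.35 and 8.54 in RA and 3.42, 3.32, 3.55 and 3.37 with the antagonist at 1 µM, a rise of at least 21.8-fold (5.03 ± 0.18, adjusted p 4.45e-12), with DMSO at 3.91. Its means in DMSO and at 10 µM of the antagonist (3.43) were also below log2 4. That probe set's place among those tested thus rested on being high in RA. The next rose by 3.84 ± 0.21, with DMSO (6.19) between RA (9.08) and the antagonist (5.24). Among those that were lower, one fell by at least 5.26-fold from the antagonist at 6.39 (adjusted p 9.46e-11).

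Several genes of the largest rises and falls belong to none of the lists. tshz1, a Teashirt zinc finger gene, averaged 10.86 in RA, 8.40 in DMSO and 7.38 with the antagonist, a rise of 3.47 ± 0.18. cldn3d, a claudin of cell junctions, rose by 3.63 ± 0.36, with 2 of its 4 antagonist arrays at or below log2 4, which limits that size. lingo1b, of the LINGO family of neural membrane proteins, was at least 4.38-fold lower in RA. zic5, a Zic zinc finger gene of the dorsal neural tube, fell by 3.42 ± 0.23. These 4 were taken from the largest differences among called genes without overlap, so their lack of overlap was set by that rule. The same holds for other genes named by that rule alone, such as six7 and oc90.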
